A study of Mus musculus with 4 samples.

Results

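The nuclear genes for the subunits of oxidative phosphorylation were described in 4 populations of mouse CD4 T lineage cells, each measured on 1 Affymetrix gene array. A gene was a member if its symbol began with Nduf followed by a, b, c, s or v and a digit, was Sdha, Sdhb, Sdhc or Sdhd, or began with Uqcr, Cox4 to Cox8 or Atp5, and was not marked as a pseudogene. This gave 78 genes of 22180 named genes: 33 of complex I, 4 of complex II, 7 of complex III, 17 of complex IV and 17 of complex V. The RefSeq gene table holds 90 symbols of this form. Of the others, 8 lay only on probe sets with several symbols. These and the remaining 4 were not analysed here, and the subunits encoded by mitochondrial DNA had 0 measured members.

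All animals were on the C57BL/6 background and 8 weeks old. The array labelled naive, called the labelled-naive array here, held spleen T cells of wild-type mice sorted as CD4+CD62Lhi. Classical Th1 cells (cTh1) were such splenic cells kept for 5 days on CD3/CD28 beads, with 2 ng/ml of IL-12, 50 U/ml of IL-2 and anti-IL-4. TT naive cells (CD4+CD62L+CXCR3-) and natural Th1 cells (nTh1, CD4+CD62L+CXCR3+) came from CIITAtg thymus, which carries a transgene of the MHC class II transactivator whose promoter the labels do not give. By the labels, genotype and tissue thus differ together between every spleen and thymus array, and culture as well where cTh1 is one of them. In these pairs they cannot be told apart. By label, cTh1 differs from the labelled-naive array in culture, and nTh1 from TT naive in CXCR3. With 1 array per group no difference has a replicate check and no test was made, and precision is limited by this small number of arrays.

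Oxidative phosphorylation passes electrons from NADH (complex I, NADH dehydrogenase) or succinate (complex II, succinate dehydrogenase) through ubiquinone to complex III, cytochrome c and complex IV, cytochrome c oxidase. The protons moved across the inner mitochondrial membrane on the way drive complex V, the ATP synthase. Resting T cells draw most of their ATP from this chain, and activated effector T cells add a high rate of glycolysis to it.

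T cell genes were high on all arrays, with Cd4 between 12.33 and 12.72 and Cd3e between 12.88 and 13.11 (log2 level). The labelled-naive array went against its label for some markers. The mean of 4 naive T cell markers was 11.59 on it, 12.31 in TT naive, 11.86 in cTh1 and 10.88 in nTh1. Of these, Ccr7 stood at 12.32 against 12.58 in TT naive, Lef1 at 12.63 against 12.68, Igfbp4 at 11.51 against 11.85 and Dapl1 at 9.90 against 12.11. Yet the array had Cxcr3 at 9.80, Tbx21, which encodes T-bet, at 9.81 and Zbtb16, the factor PLZF of innate-like T cells, at 12.23. TT naive cells had 7.76, 7.11 and 9.36. Its proliferation gene Mki67 stood at 11.22, beside 11.23 in cTh1, 10.24 in TT naive and 10.03 in nTh1. Every direction drawn from that array depends on its label, and values without it are given where a count rests on it. The mean level of 5 myeloid markers was 8.45 in nTh1, 7.63 on the labelled-naive array, 7.02 in cTh1 and 6.29 in TT naive. The mean of 3 B cell markers was 9.73 in cTh1, 7.52 in nTh1 and 6.25 and 6.39 in the others. For 2 CD8 T cell markers cTh1 had 10.53 and the other arrays 7.38 to 8.09, and for 4 immature thymocyte markers nTh1 had 9.09 and the others 7.14 to 7.51. Log2 RMA levels have no 0, so no marker could be called absent. Ciita, the gene of the transgene, was at 7.28 in TT naive and 7.72 in nTh1, against 7.59 on the labelled-naive array and 8.00 in cTh1, so its probe set did not set the transgenic arrays apart. The part of such cells in the results below was not tested. In these bulk samples fewer cells of a type and less RNA per cell cannot be told apart.

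The promoters of the members, taken from RefSeq (GRCm38.p6) as 250 bases before to 50 after each gene's start, were searched on both strands for short motif cores, because many genes of the respiratory chain are known to be bound by NRF1 and by the ETS factor GABP. Promoters were found for 64 of the 78 genes, with 69 starts. The NRF1 core, GCGC then any base then TGCGC, was in 16 of them (23.2%), against 4.60% of all 32851 promoters and 9.70% of the promoters of genes above the level filter. That filter kept genes whose mean over the 4 arrays reached 6.61, the median of the data. The ETS core CCGGAAG was in 17 (24.6%), against 8.86% and 17.1%. The YY1 core AAGATGGCG was in 6 (8.70%), against 1.40% and 2.88%. At least 1 of the NRF1 and ETS cores was in 29 (42.0%), against 12.6% and 24.7%. CCAAT was in 27 (39.1%), against 37.4% and 37.1%, and TATAAA in 9 (13.0%), against 13.6% and 7.26%. A match to these letters is a description and no proof of a site.

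The 140 bases before the start are printed for 7 members, with any NRF1, ETS or YY1 core in capitals. The first 5 show, for each complex, the member with the most negative nTh1 minus naive difference among those with a single start and an NRF1 or ETS core in the stretch. Ndufa4 and Cox6b2 are shown because their levels had the widest ranges over the arrays, and neither has a core there. CTTCCGG is the ETS core read on the other strand.
Ndufa8 (complex I, chr2:36049339-36049478, minus strand): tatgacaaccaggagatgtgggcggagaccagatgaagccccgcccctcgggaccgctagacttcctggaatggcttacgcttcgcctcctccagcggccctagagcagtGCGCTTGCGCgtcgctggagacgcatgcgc
Sdhd (complex II, chr9:50603850-50603989, minus strand): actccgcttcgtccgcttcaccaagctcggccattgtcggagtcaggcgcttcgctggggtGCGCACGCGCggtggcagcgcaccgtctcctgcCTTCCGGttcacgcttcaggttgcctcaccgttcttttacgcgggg
Uqcrh (complex III, chr4:116075071-116075210, minus strand): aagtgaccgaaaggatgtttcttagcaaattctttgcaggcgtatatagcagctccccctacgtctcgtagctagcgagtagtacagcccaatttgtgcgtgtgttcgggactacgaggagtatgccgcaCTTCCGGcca
Cox6b1 (complex IV, chr7:30626115-30626254, minus strand): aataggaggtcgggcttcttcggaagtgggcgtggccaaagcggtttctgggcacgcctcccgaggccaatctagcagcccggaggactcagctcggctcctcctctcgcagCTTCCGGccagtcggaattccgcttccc
Atp5e (complex V, chr2:174464102-174464241, minus strand): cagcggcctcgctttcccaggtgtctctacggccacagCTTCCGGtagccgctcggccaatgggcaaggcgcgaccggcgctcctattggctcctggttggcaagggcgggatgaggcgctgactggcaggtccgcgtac
Ndufa4 (complex I by symbol, chr6:11907451-11907590, minus strand): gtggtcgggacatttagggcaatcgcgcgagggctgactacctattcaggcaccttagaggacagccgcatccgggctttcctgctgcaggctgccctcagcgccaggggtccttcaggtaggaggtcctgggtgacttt
Cox6b2 (complex IV, chr7:4753095-4753234, minus strand): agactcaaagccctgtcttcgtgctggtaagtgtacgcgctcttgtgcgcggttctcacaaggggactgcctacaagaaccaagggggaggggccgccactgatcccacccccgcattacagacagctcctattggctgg

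The subunit genes had similar levels in the 4 populations, with a small shift in one direction across most of them. The range of a member over the 4 arrays ran from 0.08 for Ndufa3 to 1.42 for Cox6b2 on the log2 scale, with a median of 0.45. The same median was 0.43 over all named genes and 0.51 over the 12159 genes above the level filter. A range of 1 or more was seen in 9 members (11.5%), against 11.8% of all named genes and 17.5% of genes above the filter. Without the labelled-naive array it was seen in 6 (7.69%), against 9.41% and 14.3%, and Ndufa4, Atp5e and Atp5mpl dropped below it. nTh1 cells had the lowest level of 50 of the 78 members (64.1%), against 30% of all named genes and 35.2% of genes above the filter. Without the labelled-naive array, nTh1 was still the lowest for 53 of 78 (67.9%), against 40.2%. The labelled-naive array had the highest level of 38 members (48.7%, against 27.2% of all named genes and 29.5% of genes above the filter) and cTh1 of 24 (30.8%, against 31.2% and 34.1%). Without the labelled-naive array, cTh1 was the highest for 46 of 78 (59%), against 45.2%.

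**Figure D1:**
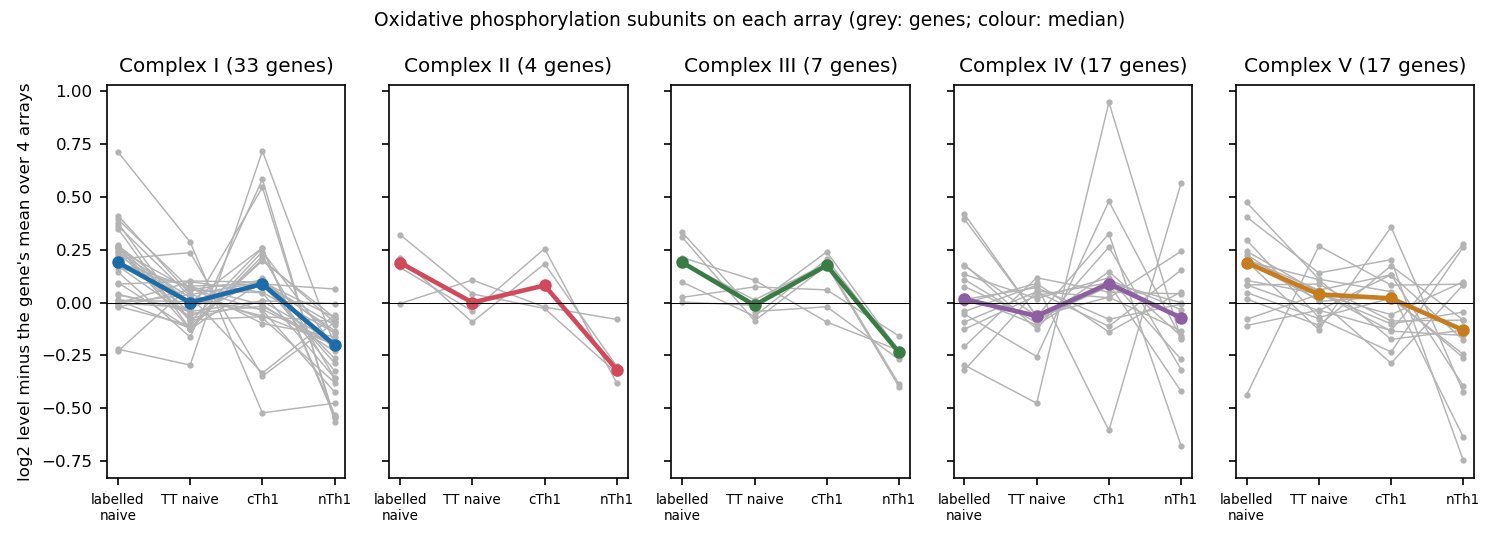
Each grey line is a subunit gene, drawn as its log2 level on each array minus its own mean over the 4 arrays, and the coloured line is the median of the complex. nTh1 is the lowest array for all 4 members of complex II and all 7 of complex III, and for 25 of 33 members of complex I, while complexes IV and V are mixed. It is the lowest array for 35.2% of genes above the level filter.

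Complex II and complex III gave the most uniform picture. All 4 succinate dehydrogenase genes were lowest in nTh1, as were 35.2% of genes above the filter. Sdhb, the iron-sulfur subunit, was at 9.72 on the labelled-naive array, 9.44 in TT naive, 9.37 in cTh1 and 9.06 in nTh1. Sdhd, a membrane anchor, was at 10.18, 9.98, 10.27 and 9.64 in the same order, and Sdhc, the other anchor, at 9.46, 9.15, 9.43 and 8.94. Sdha, the flavoprotein that oxidises succinate, varied least, with 11.07, 11.18, 11.05 and 10.99. The complex II median was -0.27 for nTh1 minus TT naive, -0.40 for nTh1 minus cTh1 and -0.53 for nTh1 minus the labelled-naive array.

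All 7 genes of complex III were also lowest in nTh1, against 35.2% of genes above the filter. The core proteins Uqcrc1 and Uqcrc2 stood at 10.80 and 11.19 there. Uqcrc1 was at 11.50 on the labelled-naive array, 11.11 in TT naive and 11.37 in cTh1, and Uqcrc2 at 11.77, 11.59 and 11.76. Both were thus close on the labelled-naive array and in cTh1, lower in TT naive and lowest in nTh1. Uqcrfs1, the Rieske iron-sulfur protein, was at 8.52, 8.36, 8.63 and 8.19 in the order labelled naive, TT naive, cTh1, nTh1. The remaining genes Uqcrb, Uqcrh, Uqcrq and Uqcr11 differed between nTh1 and the labelled-naive array by -0.60 at most for Uqcrq and by -0.18 at least for Uqcr11. The complex III median was -0.23 for nTh1 minus TT naive and -0.44 for nTh1 minus cTh1.

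In complex I, 29 of 33 genes were lower in nTh1 than in TT naive, with a median of -0.21, and 30 of 33 lower than in cTh1, with a median of -0.25. Of genes above the filter 58.1% and 57% were lower in these comparisons. nTh1 was the highest array for 0 of the 33 complex I genes, against 20.1% of genes above the filter. The measured catalytic core, which holds the flavin and the iron-sulfur clusters, was read from 6 genes. They were all lower in nTh1 than in TT naive, by -0.33 at most and -0.17 at least. Ndufs1, the largest core subunit, was the exception in rank, with 9.15 on the labelled-naive array, 9.18 in TT naive, 8.85 in nTh1 and 8.60 in cTh1, where it was lowest. Ndufs8 was at 10.67, 10.19, 10.42 and 9.99 on the arrays labelled naive, TT naive, cTh1 and nTh1. Ndufv1, the NADH-binding subunit, was at 10.40, 10.29, 10.11 and 10.05, and Ndufv2 at 11.50, 11.28, 11.24 and 11.07. Ndufs7 stayed between 12.03 and 12.26 and Ndufs3 between 8.29 and 8.54.

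The 27 accessory genes of complex I had a median of -0.21 for nTh1 minus TT naive, beside -0.22 for the core. Their single values ran from -0.76 to 0.09, against -0.33 to -0.17 for the core. The -0.76 was that of Ndufa4, and the next lowest was -0.53 for Ndufc1. A range over 27 genes tends to be wider than a range over 6, so no difference in spread is read from these values. Ndufa4, which carries a complex I name but is now placed in complex IV, had 9.19 in cTh1 and 9.24 in nTh1, while TT naive had 9.998 and the labelled-naive array 10.42. Both Th1 populations were thus below both other arrays, by 0.81 for cTh1 and 0.76 for nTh1 relative to TT naive. Ndufv3, an accessory subunit beside the NADH site, was high in cTh1 alone, at 9.70 against 8.76, 8.68 and 8.78 on the arrays labelled naive, TT naive and nTh1, a 2.02-fold difference from TT naive. Ndufb9 was at 10.75 in cTh1, 10.31 on the labelled-naive array, 10.001 in TT naive and 9.60 in nTh1. Ndufa6 followed the same order, with 10.62, 10.11, 10.04 and 9.53. Both genes were thus highest in cTh1 and lowest in nTh1, 2.21-fold and 2.13-fold apart. Ndufa12 went the other way between these arrays on its brighter probe set, with 8.15 in cTh1 and 8.43 in nTh1. Its second, dim probe set had 6.70 and 6.62. Ndufa8 was at 10.18, 9.71, 10.06 and 9.26 on the arrays labelled naive, TT naive, cTh1 and nTh1. Ndufb6, Ndufc1 and Ndufa1 were also highest on the labelled-naive array and lowest in nTh1, by -0.82, -0.80 and -0.79. Ndufs5 lay below the level filter on all arrays, between 5.83 and 6.15, and its values are not read further.

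**Figure D2:**
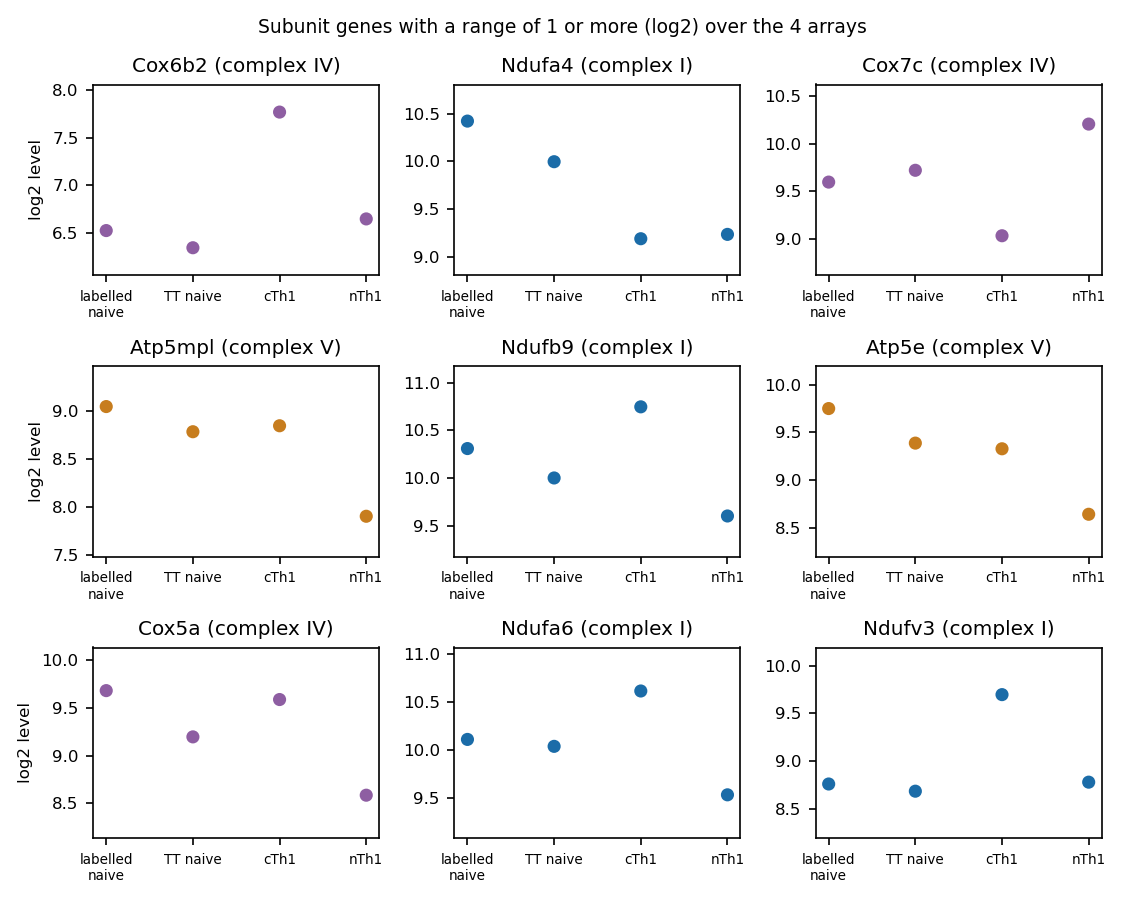
Log2 levels on the 4 arrays are shown for the 9 subunit genes whose range was 1 or more; every panel spans 2 log2 units. Cox6b2 and Ndufv3 are high in cTh1 alone, Ndufa4 is low in both Th1 populations, and Cox7c is lowest in cTh1 and highest in nTh1.

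Complex IV was mixed. Its median for nTh1 minus TT naive was -0.04, with 10 of 17 genes lower, and for nTh1 minus the labelled-naive array -0.07. The 10 of 17 was near the background, since 58.1% of genes above the filter were lower in nTh1 than in TT naive. Without the 7 tissue-restricted isoforms these medians were -0.07 and -0.29, and nTh1 was the lowest array for 6 of 10 genes (against 35.2% of genes above the filter). Cox5a, a subunit on the matrix side, was at 9.68 on the labelled-naive array, 9.20 in TT naive, 9.59 in cTh1 and 8.58 in nTh1, so nTh1 was lower than every other array. Cox7c, a small membrane subunit, was instead highest in nTh1, with 10.21 there, 9.72 in TT naive, 9.60 on the labelled-naive array and 9.04 in cTh1, a 2.25-fold difference between nTh1 and cTh1. Cox7a2l, known as a factor of respiratory supercomplexes, was likewise highest in nTh1, at 8.52 against 7.96, 8.34 and 8.30 on the arrays labelled naive, TT naive and cTh1. Cox7a2 was highest on the labelled-naive array, at 11.32, and lowest in nTh1, at 10.50. Cox7b was at 12.05 in nTh1 and between 11.78 and 11.95 elsewhere. The ubiquitous isoform Cox4i1 was at 10.54, 10.43, 10.53 and 10.14 in the order labelled naive, TT naive, cTh1, nTh1, and Cox5b at 11.31, 11.07, 11.17 and 11.01. Cox6a1 and Cox8a moved by 0.16 and 0.30 over all 4 arrays.

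Of the 8 tissue-restricted isoforms among the members, which are known from muscle, lung, testis or hypoxic cells, Cox6b2 stood apart. This isoform, named for its expression in testis, was at 7.77 in cTh1, against 6.53 on the labelled-naive array, 6.35 in TT naive and 6.65 in nTh1. The values of TT naive and the labelled-naive array lay below the level filter, so the gene passed it mainly through cTh1, and the 2.68-fold difference between cTh1 and TT naive is set against a dim level. Its ubiquitous relative Cox6b1 was at 10.59 in cTh1 and 10.20 in TT naive. Cox7a1, the muscle and heart isoform, was at 6.82 in cTh1 against 6.28, 6.08 and 6.17 on the arrays labelled naive, TT naive and nTh1, of which only the cTh1 value was above the level filter. The muscle genes Ckm, Myh6, Myh7, Tnnt2 and Actc1 had a median difference of 0.10 for cTh1 minus TT naive, with 0 of 5 past 1.5-fold. Of all named genes 16.4% were past it in either direction, so 0 of 5 is not read as a result. Cox4i2, Cox6a2, Cox7b2, Cox8b, Cox8c and Ndufa4l2 each ranged over 0.32 or less, and the last 4 of these were below the filter on all arrays.

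The ATP synthase genes were split by array. The complex V median was -0.17 for nTh1 minus TT naive, with 12 of 17 genes lower, and -0.02 for nTh1 minus cTh1, with 9 of 17 lower. Of genes above the filter 58.1% and 57% were lower in these comparisons, so the 9 of 17 was near the background. Atp5b, the catalytic beta subunit, was at 13.12, 13.06, 12.91 and 12.97 on the arrays labelled naive, TT naive, cTh1 and nTh1, and Atp5a1, the alpha subunit, at 11.81, 11.62, 11.44 and 11.42. The gamma subunit Atp5c1 was lowest in cTh1, at 7.43 against 7.91, 7.73 and 7.80. In these 3 genes cTh1 was below the labelled-naive array and TT naive, and in all but Atp5a1 it was the lowest array. Atp5e, the epsilon subunit, was at 9.75, 9.39, 9.33 and 8.64, and Atp5mpl, a small subunit of the membrane sector, at 9.05, 8.79, 8.85 and 7.90. nTh1 was the lowest array for both, though for Atp5e only on the brighter of its probe sets. For Atp5mpl it was 1.85-fold below TT naive and 1.93-fold below cTh1. Atp5g1, one of the genes for the rotating c ring, was highest in nTh1, at 7.41 against 7.20, 7.07 and 6.91, while its relatives Atp5g2 and Atp5g3 ranged over 0.28 and 0.37. Atp5pb, of the peripheral stalk, was at 10.95, 10.80, 10.87 and 10.35 in the same order. Atp5md, which helps ATP synthase form dimers, was at 13.03 on the labelled-naive array and 12.49 in nTh1. Atp5l stood out by its low value on the labelled-naive array, 7.49 against 8.19, 8.01 and 8.01. Atp5j2 was below the filter by its mean and highest in nTh1, at 6.85 against 6.44 to 6.54.

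The comparison of nTh1 with TT naive asks what goes with CXCR3 among transgenic thymocytes. Of the 78 members 62 were lower in nTh1 (79.5%, against 52% of all named genes and 58.1% of genes above the filter). The median difference was -0.19, with quartiles at -0.31 and -0.04, against -0.05 over genes above the filter and -0.01 over all named genes. The shift was small. A difference of 1.5-fold or more was reached by 4 members, all lower (5.13%, against 3.2% of all named genes and 4.43% of genes above the filter), so their number was near the background. They were Atp5mpl, Ndufa4, Atp5e and Cox5a. The SD of this difference between probe sets of the same gene, the sole measurable error, was 0.25, and 49 members differed by less than that. In nTh1 all 5 myeloid, all 3 measured B cell and all 4 measured immature thymocyte markers were at least 1.5-fold above TT naive, and their part in this shift was not tested.

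The comparison of cTh1 with the labelled-naive array sets cultured Th1 cells beside their labelled source. The members as a whole showed little shift, with a median of -0.04 (-0.070 after centring) against -0.02 over genes above the filter. By complex the median was -0.06 for complex I, -0.02 for II, -0.006 for III, 0.002 for IV and -0.20 for V. Only 4 of 78 were past 1.5-fold in either direction (5.13%, against 14.3% of all named genes and 20.5% of genes above the filter), a share below the background. Cox6b2 and Ndufv3 were higher, and Ndufa4 and Ndufa12 lower. For Ndufa12 this holds only on the brighter of its probe sets, as the other, which was dim, gave -0.07. Against TT naive the median was 0.055, and 6 members were past 1.5-fold (7.69%, against 16.4% and 23.4%). In that comparison Cox6b2, Ndufv3, Ndufb9 and Cox7a1 were higher, and Ndufa4 and Cox7c lower. After centring of the arrays on their medians this median was -0.064, so no direction is read from it. On the same arrays hexokinase 2, Hk2, stood at 9.28 in cTh1, against 7.14 on the labelled-naive array and 6.33 in TT naive. The glucose transporter Slc2a3 stood at 11.75, against 9.37 and 8.76. These genes were picked after their values were seen and do not stand for glycolysis as a whole.

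Natural and classical Th1 cells, the pair named in the series title, differed by a median of -0.25 over the members, against -0.08 over genes above the filter, with 62 of 78 lower in nTh1 (79.5%, against 53.3% of all named genes and 57% of genes above the filter). Past 1.5-fold 12 were lower (15.4%, against 11.4% of all named genes and 17.2% of genes above the filter) and 1 higher, Cox7c (against 7.58% and 9.98%). The number lower by 1.5-fold was thus near the background. Ndufb9, Cox6b2, Ndufa6 and Cox5a were the 4 members at least 2-fold lower. Probe sets of the same gene had an SD of 0.45 here, and 55 members differed by less.

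Against the labelled-naive array most members were lower in both thymic populations. TT naive was lower for 59 of 78 members (75.6%, against 55.6% of all named genes and 57.6% of genes above the filter), with a median of -0.16 and 1 member past 1.5-fold, Atp5l, which was higher (1.28%, against 3.09% of all named genes and 3.26% of genes above the filter). nTh1 was lower for 65 of 78 (83.3%, against 55.1% and 60.8%), with a median of -0.33 against -0.10 over genes above the filter. Here 18 members were lower by 1.5-fold or more (23.1%, against 8.42% of all named genes and 13% of genes above the filter) and 1 was higher, Cox7c (against 5.26% and 5.79%). Of the 18, 9 were of complex I, 1 of complex II, 2 of complex III, 2 of complex IV and 4 of complex V. Atp5h, Atp5e and Ndufa8 are among the 18, but their second probe sets gave 0.35, -0.255 and -0.47, none past 1.5-fold. For 6 of the 9 members with several probe sets these had the same sign in this comparison. In either direction 19 members were past 1.5-fold, and 15 after centring. After centring of the arrays on their medians the TT naive median was -0.072. That is close to the centred -0.070 of cTh1 minus the labelled-naive array, so TT naive and cTh1 are not set apart by it. These values rest on the array that went against its label for some markers. These comparisons all share arrays and are not independent of each other.

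**Figure D3:**
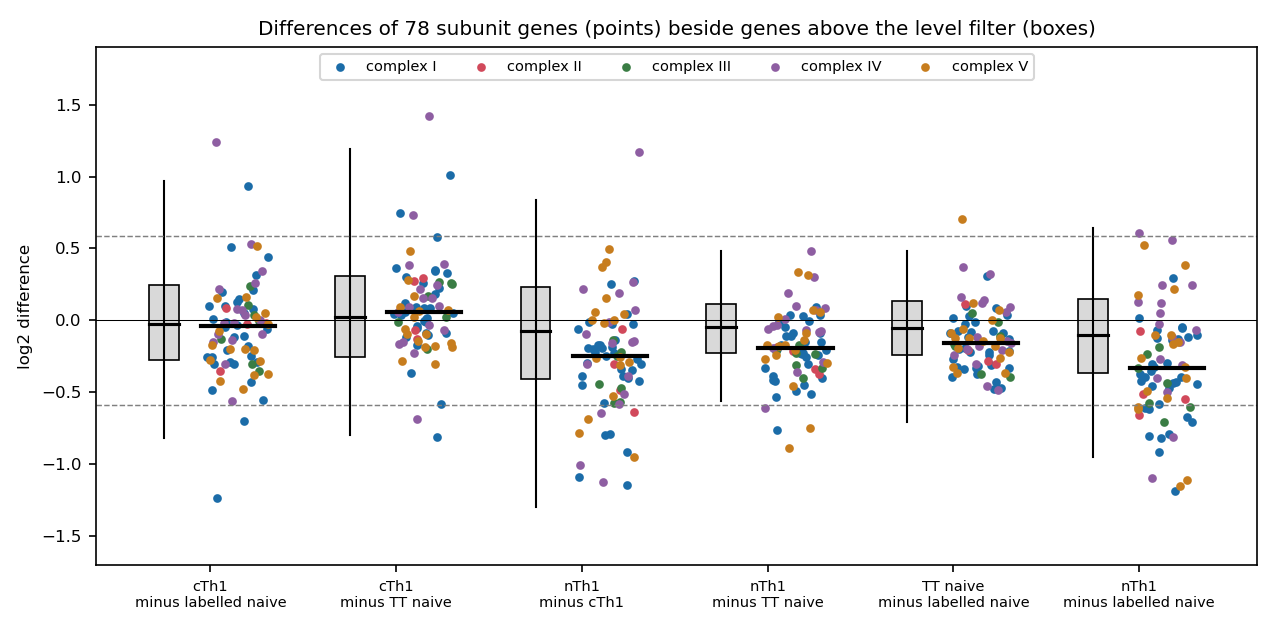
Points are the log2 differences of the 78 subunit genes in each of 6 comparisons, coloured by complex, with their median as a black bar. The box beside them gives the quartiles and the median of the genes above the level filter, its line runs from the 5th to the 95th percentile, and dashed lines mark 1.5-fold. Medians lie between -0.33 and 0.06, and most points lie within the dashed lines.

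Several probe sets were available for 9 members, and the one with the highest mean was used. For all 9 genes the probe sets gave cTh1 minus the labelled-naive array the same sign, and for 5 of 9 they did so in nTh1 minus TT naive. For Atp5g2 both had cTh1 highest (12.82 and 12.35). For Atp5d cTh1 minus TT naive was 0.17 on one and 0.71 on the other, and for Ndufa8 0.35 and 0.44. In nTh1 minus TT naive the probe sets of both genes differed in sign, with -0.14 and 0.24 for Atp5d and -0.45 and 0.03 for Ndufa8. Atp5h disagreed. Its brighter probe set gave 11.75 on the labelled-naive array and 11.42 in TT naive, and its other one 7.26 and 8.10, opposite in direction. For Atp5e, one of the members lower by 1.5-fold in nTh1, the second probe set had 7.79 in TT naive and 7.81 in nTh1 and showed no such difference. For Cox5b, Cox7b, Ndufa11 and Ndufa12 the second probe set was dim, with means of 6.44, 6.59, 7.34 and 6.71. Genes of this group have many processed copies in the genome that probes may also read, which makes single values uncertain.

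The rest of the mitochondrial programme was read from lists of genes that are not members. The 44 measured assembly factors, which build the complexes without staying in them, had a median of -0.15 for nTh1 minus TT naive, with 41 lower and 2 of 44 past 1.5-fold lower, and 0.02 for cTh1 minus TT naive. Of genes above the filter 58.1% were lower in nTh1 than in TT naive and 4.43% by 1.5-fold, so the latter count was near the background. The widest differences were those of a few factors. Cox10, which makes the heme of complex IV, was at 8.93 in cTh1 against 10.43, 10.25 and 10.03 on the arrays labelled naive, TT naive and nTh1. Ndufaf4, a complex I assembly factor, was at 7.55 in cTh1 against 9.12, 8.73 and 8.64. Coa4 was higher in cTh1, at 9.52 against 8.64, 8.37 and 8.23, and Tmem126b, another complex I assembly factor, was at 7.24 in nTh1 against 8.25 in TT naive. cTh1 was thus the array apart from the others for the first 3 of these genes.

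Genes of the mitochondrial ribosome, 71 in all, which translates the subunits encoded by mitochondrial DNA, were also mostly lower in nTh1. Their median was -0.15 for nTh1 minus TT naive and -0.37 for nTh1 minus the labelled-naive array, with 57 and 65 of 71 genes lower, against 58.1% and 60.8% of genes above the filter. In cTh1 minus TT naive Mrpl14 was higher by 0.85 and Mrps28 stood at -0.91. In nTh1 minus TT naive the largest differences were those of Mrps36, at -1.02, and Mrpl42, at -0.73.

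The 20 electron carriers and feeder enzymes had a median of -0.19 for nTh1 minus TT naive, with 16 lower, 1 past 1.5-fold higher, Coq10b, and 1 lower, Coq3 of ubiquinone synthesis at -0.89 (against 58.1% of genes above the filter lower and 4.43% lower by 1.5-fold). Cycs, which encodes cytochrome c, was at 11.94, 11.61, 11.48 and 11.08 on the arrays labelled naive, TT naive, cTh1 and nTh1. Coq10b, a ubiquinone-binding protein, had the widest spread, with 10.19, 8.71, 8.11 and 9.34. Coq8a, a kinase-like protein of ubiquinone synthesis, was highest in cTh1, at 8.77 against 7.78 to 8.02. Gpd2, the mitochondrial glycerol phosphate dehydrogenase, was lowest there, at 7.62 against 8.40, 8.46 and 7.89.

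The 15 genes of the citric acid cycle and pyruvate dehydrogenase had a median of -0.17 for nTh1 minus TT naive, with 0 past 1.5-fold. Of all named genes 3.2%, and of genes above the filter 4.43%, were that much lower. With so few genes, the count of 0 is not read as a result. For cTh1 minus the labelled-naive array the median was -0.12, with 2 past 1.5-fold lower and 0 higher. In that comparison 14.3% of all named genes and 20.5% of genes above the filter were past 1.5-fold in either direction. The count was thus not above the background. Idh3a, a subunit of isocitrate dehydrogenase, was at 10.21, 9.52, 9.04 and 9.03 on the arrays labelled naive, TT naive, cTh1 and nTh1, and Suclg1 of succinyl-CoA ligase at 8.78, 8.43, 8.06 and 8.02. Both were lower in the Th1 populations than in the other arrays. Fh1, the fumarase, was at 9.06 in nTh1 and between 9.59 and 9.67 elsewhere.

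Among 8 genes of adenine nucleotide and phosphate exchange, outer membrane porins and related proteins, the median was -0.18 for nTh1 minus TT naive, with 0 past 1.5-fold. Since only 4.43% of genes above the filter were that much lower, a count of 0 among 8 is not read as a result. For nTh1 minus cTh1 the median was -0.66, with 5 at least 1.5-fold lower and 0 higher. In that comparison 11.4% of all named genes and 17.2% of genes above the filter were that much lower. Vdac1, the main porin, was at 11.89 in cTh1, 11.62 on the labelled-naive array, 11.14 in TT naive and 10.88 in nTh1. Atpif1, the inhibitor of reverse ATP synthase, was at 10.28, 9.97, 9.32 and 9.34 in that order. Slc25a4, an ADP/ATP carrier, was at 9.54, 9.31, 8.90 and 8.67. All 3 were highest in cTh1 and next on the labelled-naive array.

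Regulators of mitochondrial biogenesis and of mitochondrial DNA expression, 21 in all, had medians between -0.16 and 0.07 in the 6 comparisons. Pprc1, a coactivator of the PGC-1 family, was at 8.03 in cTh1 against 9.13, 9.32 and 9.06 on the arrays labelled naive, TT naive and nTh1, and Lrpprc, which stabilises mitochondrial mRNA, at 8.31 against 9.13, 9.10 and 8.99. Myc was at 11.07 in cTh1, 10.76 in nTh1, 10.64 in TT naive and 10.14 on the labelled-naive array. Tfam, which packages and transcribes mitochondrial DNA, was at 7.82 in nTh1 and between 8.35 and 8.38 on the others. Nrf1 itself stayed between 8.78 and 8.92 and Gabpa between 9.30 and 9.47.

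Cell cycle genes moved with some of these comparisons. Their median over 9 measured genes was 1.27 for cTh1 minus TT naive, where the subunits had 0.055, and -0.16 for nTh1 minus TT naive, where the subunits had -0.19. For nTh1 minus cTh1 it was -1.60 and for nTh1 minus the labelled-naive array -1.17. The part of proliferation in the values of the subunit genes was not tested.

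**Figure D4:**
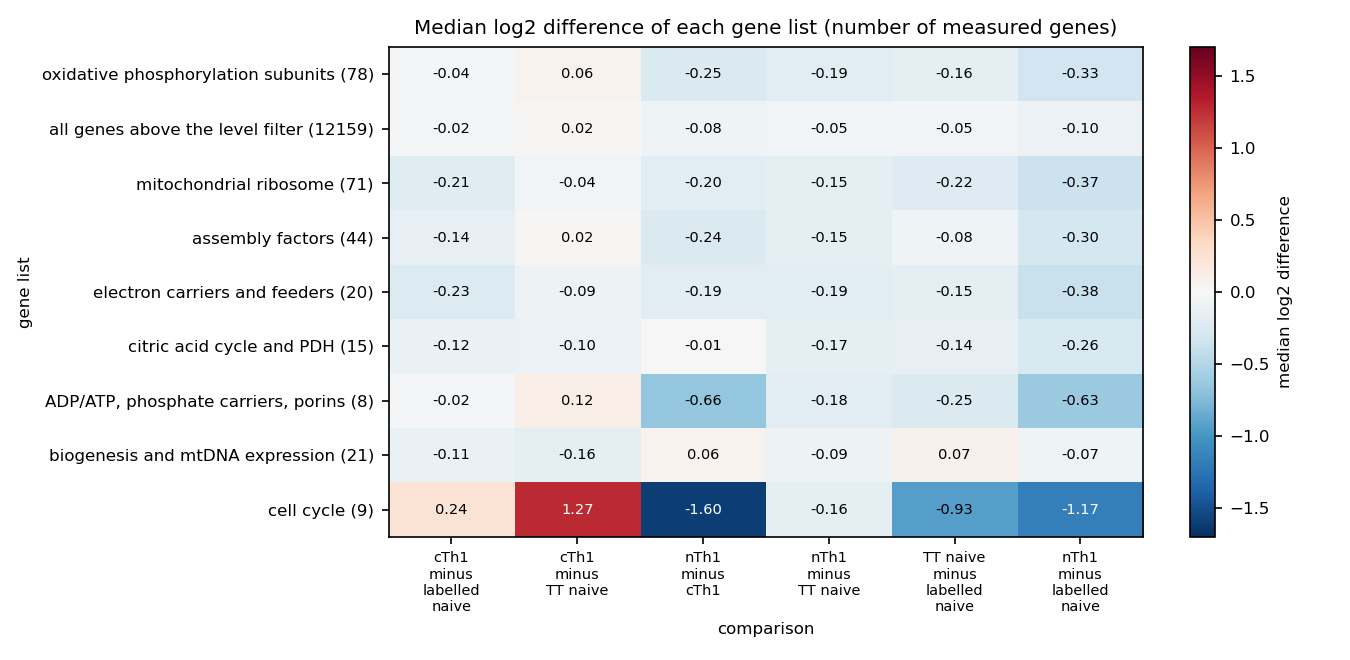
Colour and number give the median log2 difference of each gene list (rows) in each of 6 comparisons (columns), with the number of measured genes in brackets. The subunit genes and the other mitochondrial lists lie between -0.66 and 0.12, and the cell cycle list between -1.60 and 1.27.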

How the data were processed

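Per the submitters' processing notes, the authors summarised probe sets by RMA in Expression Console 1.3.1 (Affymetrix) and deposited log2 values; per the labels' protocols, 300 ng of total RNA was used. RMA sets probe intensities to a common distribution, so a change in total RNA per cell is not seen. The summarised arrays still differed, with medians of 8.72, 8.65, 8.73 and 8.54 (labelled naive, TT naive, cTh1, nTh1) over genes above the filter. Over all named genes the medians were 6.85, 6.76, 6.88 and 6.80. The main values were not centred. Centring as an alternative used the medians over all named genes, where nTh1 lay above TT naive. It gave nTh1 minus TT naive a median of -0.23 in place of -0.19. Over genes above the filter nTh1 lay below TT naive, and centring on those medians was not run. The annotation's build was not given in the sources used here. Of 41345 probe sets, 23521 had 1 gene symbol, 1814 several (these named no gene) and 16010 none. A gene was read from its brightest probe set by mean level.

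Each difference subtracts the second array named from the first. Counts and medians cover all 78 members, of which 71 passed the level filter (6.61). The threshold was 1.5-fold. With 1 array a group there was no test. The only error is the SD of a difference among probe sets of one gene, pooled over 437 genes above the filter. The counting code was checked on simulated data with known differences, which is no test of these results.

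Members, lists and rules were chosen with earlier results of these data known. Named are core subunits, restricted isoforms, the extremes of each complex in each comparison, members with several probe sets, a range of 1 or more, or a mean below the filter, and the 4 largest differences of each other list in 3 comparisons, beside marker genes. Ndufa3, Ndufa1, Ndufb6, Ndufc1, Cox6a1, Cox6b1, Cox7a2, Cox8a, Atp5g3, Atp5pb, Hk2, Slc2a3, Nrf1 and Gabpa were named after their values were seen.

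Alternatives were level filters at the median and the 75th percentile, centring, removal of a lowess trend (span 0.3), the mean of all probe sets and a 2-fold threshold. Counts of the highest and lowest array, also without each array, were added after seeing the data. Software was Python 3.11.15, with pandas 2.3.3, numpy 2.4.6, statsmodels 0.14.6 and matplotlib 3.10.9.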

Additional observations from a re-analysis of the deposited data

Results flagged for a closer look

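In 3 members the difference between Th1 and naive cells went in opposite directions in the spleen and in the thymus, each by more than probe sets of 1 gene differed among themselves (SD). The share of all genes that meet this rule was not computed, so the number is not read as a result about the members. Ndufa6 was higher by 0.51 in cTh1 than on the labelled-naive array and stood at -0.51 in nTh1 minus TT naive. Ndufb9 was at 0.44 and -0.40 in these comparisons. Cox7c had the reverse order, with -0.56 and 0.48. These comparisons also differ in genotype, in culture and in how the Th1 cells were defined, which cannot be told apart from tissue. The difference between them was not tested, since each group had 1 array. The spleen values rest on the array that went against its label for some markers.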

How the results depend on the processing

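No paired analysis was possible because each group had 1 array. Of 88 recomputed values, 79 stayed within 0.1 on the log2 scale (medians) or within 1.5 times (counts). After centring, the median of cTh1 minus TT naive was -0.064 in place of 0.055, that of TT naive minus the labelled-naive array -0.072 in place of -0.16 and that of cTh1 minus the labelled-naive array -0.070 in place of -0.04. At 2-fold, 2 members remained past the threshold in cTh1 minus the labelled-naive array, 2 in cTh1 minus TT naive, 5 in nTh1 minus cTh1, 0 in nTh1 minus TT naive, 0 in TT naive minus the labelled-naive array and 4 in nTh1 minus the labelled-naive array, which follows from the stricter threshold. With a filter at the 75th percentile, which left 55 members, 0 were past 1.5-fold in TT naive minus the labelled-naive array, since Atp5l was below that filter. Without the labelled-naive array, cTh1 was the highest array for 46 members in place of 24. Removal of the lowess trend gave a median of -0.13 for nTh1 minus TT naive and -0.23 for nTh1 minus the labelled-naive array. It left 14 members past 1.5-fold in the latter comparison, in place of 19. The lack of replicate arrays limits every value, and dim probe sets limit the restricted isoforms.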
